A study of Oryza sativa with 6 samples.

Results

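Expression of 10 manganese, zinc and cadmium transporter genes was described in root libraries of 2 rice cultivars, 9311 and HHZ (Huanghuazhan). The genes were chosen by their identifiers in the count table, which holds 36844 genes, with no threshold on a measured value, although earlier results of these data were known when the list was made. The pairing of identifiers with transporter names was given with the list, and no table used here holds both, so the names were not checked. The genes are Os07g0258400 (NRAMP1), Os07g0257200 (NRAMP5), Os01g0130000 (MTP9), Os07g0232900 (HMA3), Os06g0700700 (HMA2), Os08g0207500 (ZIP4), Os05g0472700 (ZIP5), Os05g0198400 (ZIP7), Os07g0232800 (ZIP8) and Os05g0472400 (ZIP9). All 10 had enough counts to be tested, as did 22554 genes of the table. There were 3 root libraries of 9311 and 3 of HHZ, the cultivar against which 9311 was compared for its stronger early growth. At an age of 50 days after germination (DAG), plants of both cultivars spent 2 days in solution without NH4NO3 and were then resupplied with 1 mM NH4NO3 for 3 h before the roots were frozen. The hydroponic solution of both cultivars held 9 μmol per L MnSO4, 0.7 μmol per L ZnSO4 and 50 μmol per L FeNaEDTA, and its listed composition names no cadmium salt. No supply of a metal was varied, so the comparison is of the cultivars only, and the resupply is shared by all libraries.

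Manganese and zinc are essential metals that roots must take up and move to the shoot, while cadmium is toxic and travels through some of the same proteins. In rice roots, influx carriers of the NRAMP (natural resistance-associated macrophage protein) and ZIP (ZRT, IRT-like protein) families bring divalent metals into cells. Efflux carriers such as the metal tolerance protein MTP9 pass manganese on toward the stele, and P-type ATPases of the HMA (heavy metal ATPase) family either lock metals in the vacuole or move them into the vascular tissue. Several rice ZIP genes are known to be induced when zinc is short.

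The total counts lay between 16622441 and 22324192 in 9311 libraries and between 21273125 and 22646162 in HHZ libraries. Expression is given as CPM (counts of a gene scaled to a common library size), with library sizes adjusted by the TMM (trimmed mean of M-values) method, and 3 counts correspond to at most 0.175 CPM. CPM is not corrected for gene length, so levels are compared between libraries for one gene and not between genes. Ratios of counts of neighbouring genes are likewise compared only between libraries. HHZ replicate 3 stood apart, with a root mean square log2 distance of 0.885 to the other HHZ libraries over all genes tested, against 0.557 to 0.701 for each of the remaining libraries to those of its own cultivar. Replicates of one cultivar differed by more than counting error, the chi-square divided by its degrees of freedom being at least 23.5. The labels do not say which plants or containers the replicates came from, so p-values measure the spread between these libraries, which may be partly technical. Names of tissue markers could not be paired with the identifiers of the table, and the root label was not checked in that way. In whole roots, fewer cells of a type that expresses a gene and less RNA of it per cell cannot be told apart.

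With all 6 libraries, edgeR found a difference between the cultivars in 2 of the 10 transporters, both of the ZIP family and both higher in 9311. Neither difference passed the threshold when 9311 replicate 2 or HHZ replicate 2 was left out. For the other transporters a difference was not shown by this test, which does not exclude one. ZIP9, a zinc influx carrier of the root, was 2.43-fold higher in 9311, and ZIP7, which takes part in moving zinc through the vascular tissue, was 1.73-fold higher. A gene is called where the quasi-likelihood test of edgeR gave a p-value under 0.05 after Benjamini-Hochberg adjustment over all genes tested, which was so for these 2. Of all genes tested, 6.51% were called, 3.25% with higher and 3.26% with lower expression in 9311. None of the 10 transporters was called lower in 9311 by edgeR, while 3 had an unadjusted p under 0.05 in either direction, ZIP9, ZIP7 and HMA2. The share of all genes tested with such an unadjusted p was not taken, so this count has no background to be read against. DESeq2 called 3 of the 10, the same 2 ZIP genes and, lower in 9311, HMA2, where it called 11.2% of the genes that received an adjusted p-value. By role, 0 of the 3 manganese and cadmium carriers, 0 of the 2 ATPases and 2 of the 5 ZIP genes were called by edgeR.

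**Figure D1:**
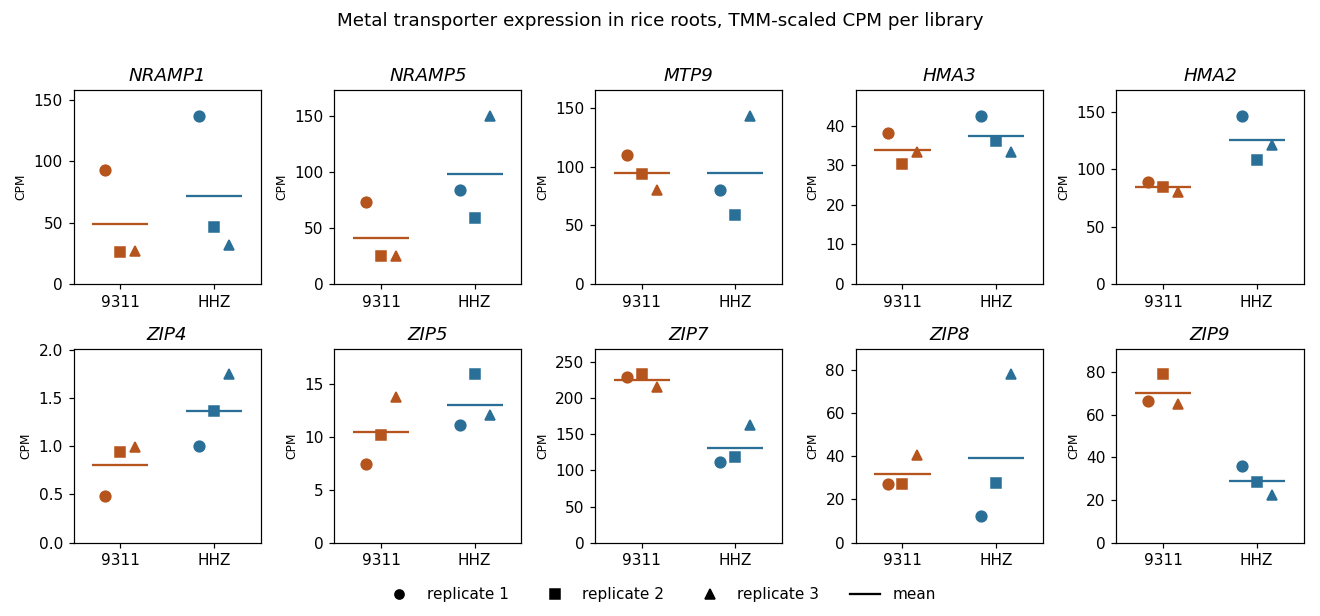
Expression of the 10 transporter genes in each root library, with one panel per gene, TMM-scaled CPM on a linear vertical axis that starts at 0, 9311 left of HHZ, one symbol per replicate and a line at the mean of 3. The 3 libraries of 9311 lie above all of HHZ for ZIP7 and ZIP9 and below all of HHZ for HMA2 and ZIP4, and for the other 6 genes the cultivars overlap.

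For 4 of the 10 genes the cultivars did not overlap in any library, 2 with 9311 above HHZ and 2 with 9311 below. Over all genes tested, 27.2% did not overlap, 13.0% with 9311 above and 14.3% with 9311 below. The median log2 fold change, 9311 over HHZ, was -0.31 over the 10 genes and -0.01 over all genes tested. Its median size, regardless of direction, was 0.57 over the 10 genes and 0.26 over all genes tested. The SD of log2 CPM within a cultivar was also larger, with a median of 0.41 over the 10 genes against 0.26. The larger size therefore does not by itself set the 10 genes apart. An exact permutation test of one gene with 3 libraries against 3 cannot go below p = 0.1, so the calls rest on the fit across all genes.

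**Figure D2:**
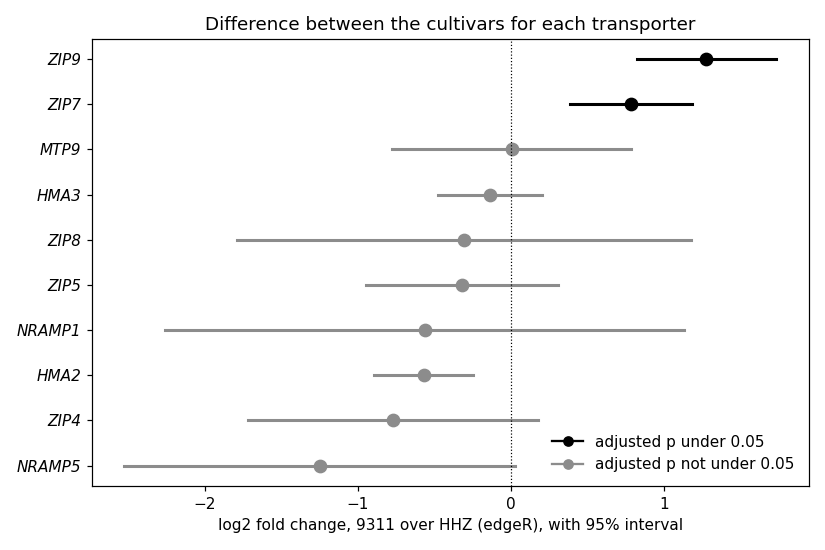
Log2 fold change of each transporter, 9311 over HHZ, from edgeR (points) with its 95% interval (lines), with genes ordered by fold change from the highest at the top. The intervals of ZIP9, ZIP7 and HMA2 do not include 0, and those of NRAMP1, ZIP8 and NRAMP5 are the widest.

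Among the zinc carriers, ZIP9 showed the larger of the called differences. ZIP9 has been described as a root carrier that takes up zinc, together with the neighbouring ZIP5. Its expression was 66.6, 79.0 and 65.2 CPM in 9311 replicates 1, 2 and 3, and 36.0, 28.5 and 22.5 CPM in HHZ replicates 1, 2 and 3. Every 9311 library was higher than every HHZ library. The means were 70.3 ± 7.6 CPM in 9311 and 29.0 ± 6.75 CPM in HHZ (SD, n = 3 each), a log2 fold change of 1.28 (standard error 0.189, 95% interval 0.82 to 1.73, adjusted p = 0.0114 in edgeR). The adjusted p of ZIP9 was no longer under 0.05 without 9311 replicate 2 (0.0564) or without HHZ replicate 2 (0.0608), with log2 fold changes of 1.18 and 1.27, and without HHZ replicate 3 it was 0.00788.

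ZIP7 is expressed in vascular tissue and is known for its part in delivering zinc from root to shoot and grain. It was counted at 229, 233 and 216 CPM in 9311 replicates 1, 2 and 3, and at 111, 118 and 163 CPM in HHZ replicates 1, 2 and 3. The 9311 libraries were close to one another and all above HHZ, where replicate 3 was the highest. The means were 226 ± 9.17 CPM in 9311 and 131 ± 28.2 CPM in HHZ (SD, n = 3 each), and the log2 fold change was 0.79 (standard error 0.166, 95% interval 0.39 to 1.19, adjusted p = 0.0423 in edgeR). This call was close to the threshold. It was lost where 10 counts were required in every library (adjusted p = 0.0677 in edgeR). Its adjusted p was 0.00518 without HHZ replicate 3 and between 0.0879 and 0.163 when one of the other 5 libraries was left out.

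ZIP4, ZIP5 and ZIP8, which carry zinc across the plasma membrane, were not called. ZIP4 was near the limit of detection, with 10, 18 and 17 counts in 9311 replicates 1, 2 and 3, and 23, 32 and 38 counts in HHZ replicates 1, 2 and 3. This corresponded to 0.481, 0.947 and 0.995 CPM in 9311 and to 1.00, 1.36 and 1.75 CPM in HHZ. All 9311 libraries were below all HHZ libraries, although the highest 9311 value and the lowest HHZ value differed by less than the CPM of 1 count, which is at least 0.0426. The log2 fold change of ZIP4 was -0.77 (standard error 0.396, 95% interval -1.72 to 0.18, adjusted p = 0.328 in edgeR).

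ZIP5 was expressed at 7.46, 10.2 and 13.8 CPM in 9311 replicates 1, 2 and 3, and at 11.1, 15.9 and 12.1 CPM in HHZ replicates 1, 2 and 3. The cultivars overlapped, and the log2 fold change of -0.32 (95% interval -0.94 to 0.31, adjusted p = 0.546 in edgeR) was within the spread between replicates. ZIP8 had 27.2, 27.1 and 40.7 CPM in 9311 replicates 1, 2 and 3, and 12.3, 27.5 and 77.9 CPM in HHZ replicates 1, 2 and 3. The lowest and the highest value of ZIP8 were both in HHZ, and its range was 1.5-fold in 9311 and 6.34-fold in HHZ. Its log2 fold change of -0.31 had a 95% interval of -1.79 to 1.18 (adjusted p = 0.822 in edgeR), and without HHZ replicate 3 it was 0.66 (adjusted p = 0.294). It was also positive, at 0.065, in limma-voom with all 6 libraries. Of the 5 ZIP genes, ZIP7 and ZIP9 were thus called higher in 9311 by edgeR with all 6 libraries, and no difference in either direction was shown for the other 3.

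The P-type ATPases handle zinc and cadmium inside the root. HMA2 sits in the plasma membrane of vascular cells and is known for sending zinc and cadmium toward the shoot. Its expression was 88.9, 84.4 and 80.3 CPM in 9311 replicates 1, 2 and 3, and 147, 109 and 121 CPM in HHZ replicates 1, 2 and 3. All 9311 libraries were below all HHZ libraries, with means of 84.5 ± 4.29 CPM in 9311 and 126 ± 19.5 CPM in HHZ (SD, n = 3 each). The log2 fold change of -0.57 (standard error 0.136, 95% interval -0.90 to -0.24) missed the threshold in edgeR (adjusted p = 0.0625). It passed in DESeq2 (adjusted p = 0.0136) and, in edgeR, with upper quartile scaling (0.0475) and with library totals only (0.0396). Over the 14 alternatives its adjusted p lay between 0.0136 and 0.195.

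HMA3, a pump of the vacuolar membrane that holds cadmium back in root cells, varied least in its HHZ libraries among the 10 genes. It had 38.1, 30.4 and 33.3 CPM in 9311 replicates 1, 2 and 3, and 42.5, 36.1 and 33.3 CPM in HHZ replicates 1, 2 and 3. The cultivars overlapped, and the log2 fold change was -0.14 (standard error 0.142, 95% interval -0.48 to 0.20, adjusted p = 0.638 in edgeR). The interval leaves room for a level between 0.48 lower and 0.20 higher in 9311 on the log2 scale. Transcript counts do not show whether the encoded pump is active, and alleles of HMA3 that lack function are known among rice cultivars.

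NRAMP5 imports manganese into root cells and is known as the main entry of cadmium into rice. It was counted at 73.3, 25.2 and 25.0 CPM in 9311 replicates 1, 2 and 3, and at 84.3, 59.3 and 150.5 CPM in HHZ replicates 1, 2 and 3. The cultivars overlapped through 9311 replicate 1, which was 2.92 times the mean of the other 9311 libraries. The means were 41.2 ± 27.8 CPM in 9311 and 98.0 ± 47.1 CPM in HHZ (SD, n = 3 each), a log2 fold change of -1.25 (standard error 0.533, 95% interval -2.53 to 0.03) that missed the threshold (adjusted p = 0.245 in edgeR). Without 9311 replicate 1 the libraries did not overlap, as for 35.5% of all genes tested then, and the log2 fold change was -1.98 (adjusted p = 0.0847), and without HHZ replicate 3 it was -0.81 (adjusted p = 0.337).

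NRAMP1, a close relative of NRAMP5 in the plasma membrane that also carries manganese and cadmium, had 92.4, 26.1 and 26.9 CPM in 9311 replicates 1, 2 and 3. In HHZ replicates 1, 2 and 3 it had 137, 46.4 and 31.6 CPM. In each cultivar replicate 1 was far above the others, at 3.49 times their mean in 9311 and 3.51 times in HHZ. The log2 fold change of -0.56 had a 95% interval of -2.26 to 1.13 (adjusted p = 0.704 in edgeR), which includes large differences in either direction. Without HHZ replicate 1 the fold change turned to 0.31 (adjusted p = 0.838).

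MTP9, which exports manganese from root cells on the side of the stele and so works downstream of NRAMP5, had nearly equal means of 94.6 ± 14.7 CPM in 9311 and 94.3 ± 44.1 CPM in HHZ (SD, n = 3 each). Its values were 109.7, 93.6 and 80.4 CPM in 9311 replicates 1, 2 and 3, and 80.4, 58.8 and 144 CPM in HHZ replicates 1, 2 and 3. The 9311 libraries lay inside the range of HHZ. The log2 fold change was 0.005 with a 95% interval of -0.78 to 0.79 (adjusted p = 0.995 in edgeR), and 0.43 without HHZ replicate 3 (adjusted p = 0.207).

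**Figure D3:**
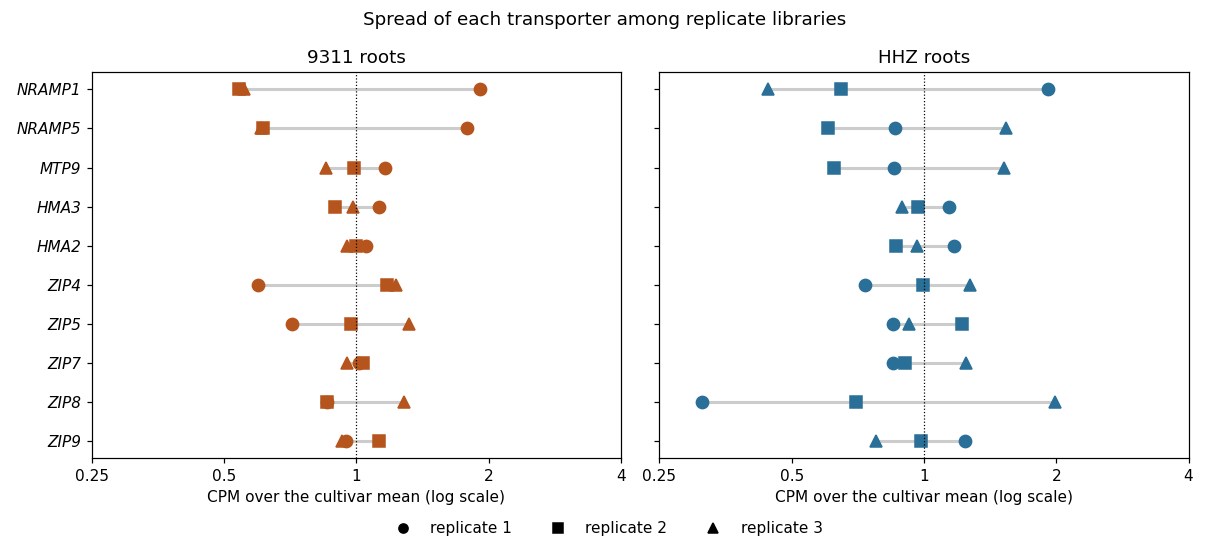
Expression of each transporter in each replicate library divided by the mean of its cultivar, on a logarithmic horizontal axis, for 9311 roots on the left and HHZ roots on the right, with one symbol per replicate. NRAMP1 is highest in replicate 1 of both cultivars, and NRAMP5, MTP9 and ZIP8 are highest in HHZ replicate 3.

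The spread between replicates was measured as the SD of log2 CPM within a cultivar, pooled over both. Its median was 0.41 over the 10 transporters and 0.26 over all genes tested. NRAMP1 had an SD of 1.07, larger than 96.2% of all genes tested, and ZIP8 of 0.97, larger than 95%. NRAMP5 followed with an SD of 0.79, larger than 91.6% of the genes, and MTP9 with 0.49, larger than 77.3%. By contrast, HMA2 and HMA3 had an SD of 0.16 and 0.17, and ZIP7 of 0.21. HHZ replicate 3 was the highest HHZ library for 5 of the 10 genes (NRAMP5, MTP9, ZIP4, ZIP7 and ZIP8) and the lowest for 3 (NRAMP1, HMA3 and ZIP9). Within 9311, replicate 1 was the highest for 5 genes and replicate 3 the lowest for 5. The same shares over all genes tested were not taken, so these counts do not set the transporters apart from other genes. The part of the state of single libraries in these values was not tested.

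**Figure D4:**
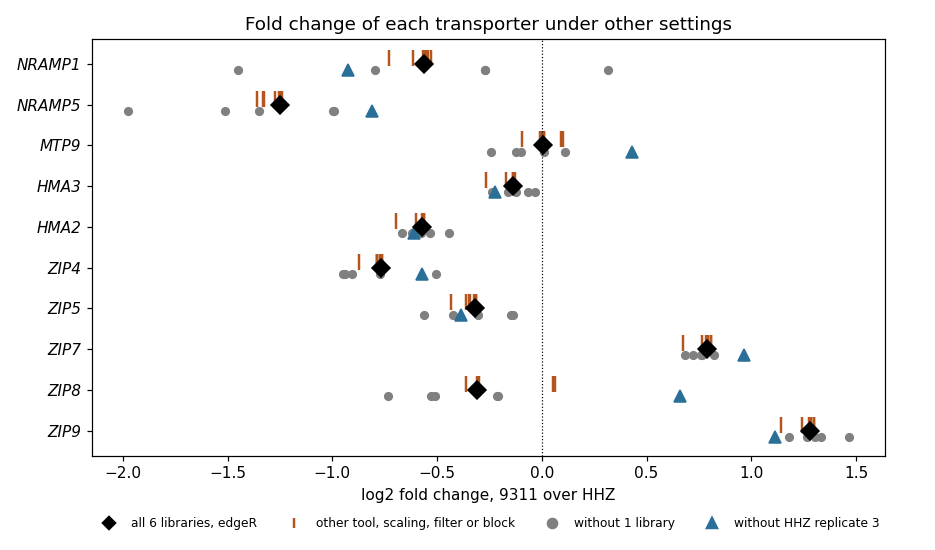
Log2 fold change of each transporter, 9311 over HHZ, with all 6 libraries in edgeR (diamonds), with another tool, scaling, filter or the replicate block (bars), and without 1 library (circles, with HHZ replicate 3 as triangles). NRAMP5, HMA3, HMA2, ZIP4, ZIP5, ZIP7 and ZIP9 keep their direction under each setting shown, while NRAMP1, MTP9 and ZIP8 cross 0.

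Several of the genes lie next to one another by row of the table. ZIP8 and HMA3 are in adjacent rows, 1 row separates ZIP9 from ZIP5, and 6 rows separate NRAMP5 from NRAMP1. The names of 8 of the 10 genes, all but MTP9 and HMA3, are also in a RefSeq gene table of the rice assembly ASM3414082v1. These were matched by name only, since none of the 10 identifiers is in that table. There ZIP9 and ZIP5 are direct neighbours on chromosome 5, and 5 genes lie between NRAMP5 and NRAMP1 on chromosome 7. Neighbours of one family can resemble each other. The counts come from the GeneCounts option of the aligner STAR, whose strand setting is not given. How near-identical stretches and overlapping genes affected the values of such pairs was not tested.

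The ratio of counts of neighbouring transporters in the same library does not depend on depth or scaling. It is not corrected for gene length, so only its differences between libraries are read. ZIP9 had 8.93, 7.78 and 4.74 times the counts of ZIP5 in 9311 replicates 1, 2 and 3, and 3.24, 1.79 and 1.86 times in HHZ replicates 1, 2 and 3. The ratio was higher in every 9311 library than in any HHZ library, and the geometric means differed 3.13-fold. The exact permutation test of this difference gave p = 0.1 (two-sided), the smallest it can give, and 0.3 after Benjamini-Hochberg adjustment over the 3 pairs compared. This test cannot pass the threshold with 3 libraries against 3.

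ZIP8 had 0.712, 0.893 and 1.22 times the counts of HMA3 in 9311 replicates 1, 2 and 3, against 0.289, 0.761 and 2.34 times in HHZ. The ratio of these adjacent genes overlapped between the cultivars (exact permutation p = 0.9) and spanned a wider range in HHZ than in 9311. NRAMP5 had 0.794, 0.964 and 0.930 times the counts of NRAMP1 in 9311, against 0.616, 1.28 and 4.76 times in HHZ (exact permutation p = 0.5). Both NRAMP genes thus kept nearly one proportion in the 9311 libraries, whereas in HHZ replicate 3 NRAMP5 was high and NRAMP1 low.

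**Figure D5:**
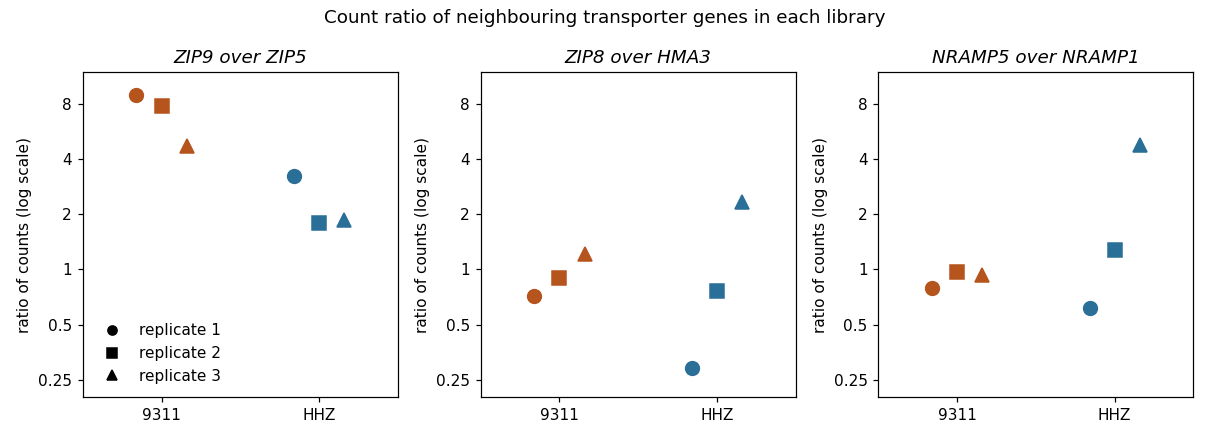
Ratio of counts of neighbouring transporter genes in each root library, on a logarithmic vertical axis, with 9311 left of HHZ and one symbol per replicate. The ratio of ZIP9 to ZIP5 lies between 4.74 and 8.93 in 9311 and between 1.79 and 3.24 in HHZ, and the other ratios overlap.

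Around the 10 genes, the rows within 2 rows of a transporter or between a neighbouring pair held 35 other genes, of which 12 had 0 counts in all 6 libraries and 17 were tested. Of these 17, edgeR called 2, both higher in 9311, against 6.51% of all genes tested. One is Os05g0198950, the second row after ZIP7, with 92, 89 and 132 counts in 9311 replicates 1, 2 and 3 and 0 counts in every HHZ library. Its 5.61 ± 1.83 CPM in 9311 (SD, n = 3) is at least 40.6-fold higher than the CPM of 3 counts in an HHZ library (adjusted p = 0.00349 in edgeR). The other is Os07g0256866, the row before NRAMP5, with 29, 58 and 41 counts in 9311 replicates 1, 2 and 3 and 3, 4 and 7 counts in HHZ replicates 1, 2 and 3. Its log2 fold change was 3.42 (standard error 0.490, adjusted p = 0.0101 in edgeR). Os05g0472500, the only row between ZIP9 and ZIP5, had 0 counts in every 9311 library and 12, 12 and 10 counts in HHZ replicates 1, 2 and 3, too few for the test. Of the 6 rows between NRAMP5 and NRAMP1, 5 had 0 counts in all 6 libraries. The table does not name these genes. Reads of both cultivars were aligned to one reference genome. Where a cultivar lacks a gene, or its sequence differs from the reference, the gene may be listed at 0 or counted too low. The 10 transporters share this limit, and its part in their differences between the cultivars was not tested.

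For each transporter, the tested gene most like it was sought by Pearson's correlation of log2 CPM over the 6 libraries. This is a description of 6 points that share the 2 cultivars and the state of each library. The highest correlations were 0.993 to 0.999, each picked as the largest over all genes tested. How many genes lie above 0.95 for a gene outside the list was not measured. The numbers of such genes given here therefore have no background to be read against. For ZIP9 it was Os08g0178700 (r = 0.999), with 336 genes above 0.95, and for ZIP7 Os11g0181500 (r = 0.997), with 371 genes above 0.95. For NRAMP1 it was Os11g0191300 (r = 0.995), with 29 genes above 0.95, and for NRAMP5 it was Os06g0681700 (r = 0.994), with 87. HMA2 was most like Os03g0858800 (r = 0.997), whose own log2 fold change was -1.01 (adjusted p = 0.0369 in edgeR). It was the only one of the most similar genes that was called. The log2 fold change of the gene most like ZIP9 was 0.44 (adjusted p = 0.0572 in edgeR). That of the gene most like ZIP7 was 0.33 (adjusted p = 0.154 in edgeR). For the other 5 transporters the most similar genes were Os02g0606800 (MTP9), Os04g0379600 (HMA3), Os04g0166000 (ZIP4), Os12g0639600 (ZIP5) and Os03g0372700 (ZIP8).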

How the data were processed

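Root RNA of 6 libraries was sequenced, 3 each of 9311 and HHZ. The authors trimmed adaptors, ran STAR against IRGSP-1.0 (the Nipponbare reference) and deposited unnormalized counts per gene from its GeneCounts option. The submitters' processing notes name Trim Galore and STAR 2.5.3a, while the methods of the paper name cutadapt and another STAR release. The strand setting and the annotation release are not given in the sources used here.

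The 9311 libraries were set against those of HHZ with edgeR 4.0.16 under R 4.3.3 (TMM scaling, filterByExpr with a minimum count of 10, quasi-likelihood test, adjustment over all 22554 genes tested, threshold 0.05, cultivar as the only term). The standard error is the size of the log2 fold change over the square root of F, and the 95% interval uses the degrees of freedom of the test. Log2 CPM used a prior count of 2. DESeq2 1.42.0, limma-voom (limma 3.58.1), other scalings and filters, a replicate block and leaving out each library were alternatives. The tools were also run on simulated counts, and that outcome is not used here. All 10 genes were to be named, with their neighbours in the table by identifier. The members and lists were chosen with earlier results of these data known. Only 1 identifier of the count table is in the RefSeq table, so other metal transporters and tissue markers were not analysed here.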

Additional observations from a re-analysis of the deposited data

How the results depend on the processing

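Of 140 comparisons of a transporter with an alternative, 118 kept their direction and side of the threshold, 10 lost a call (7 of ZIP7 and 3 of ZIP9), 3 gained one (HMA2) and 9 changed direction, none of them called. The number of genes called was 1468, and 2885 with DESeq2, 563 where 10 counts were required in every library, and 761 to 2724 without 1 library, the highest without HHZ replicate 3. The number of transporters called was 2, 1 with at least 10 counts in every library (ZIP7 at an adjusted p of 0.0677 in edgeR) and 0 to 2 without 1 library. It was 0 without 9311 replicate 2 or HHZ replicate 2, 1 (ZIP9) without 9311 replicate 1 or 3 or HHZ replicate 1, and 2 without HHZ replicate 3. With 1 library left out, 4 to 6 transporters did not overlap, where 32.3% to 46.8% of all genes tested did not, against 27.2% with all 6 libraries. The log2 fold change of MTP9 was -0.009 with upper quartile scaling, -0.093 with library totals only and -0.243 to 0.430 without 1 library. That of ZIP8 was 0.065 in limma-voom, 0.053 with the replicate block and -0.734 to 0.658 without 1 library, and that of NRAMP1 was -1.449 to 0.314 without 1 library. With library totals only, the median of all genes moved to -0.13 and 43.6% of called genes lay higher in 9311, where TMM gave 49.9%. The causes of these changes were not tested.

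The labels do not say whether libraries of the same replicate number belong together. The correlation of deviations from the cultivar mean was -0.117, 0.085 and -0.126 for libraries of the same number. For libraries of different number it lay between -0.393 and 0.314. With 3 libraries per cultivar these values cannot decide whether the numbers pair the libraries. With the replicate block 470 genes and 0 transporters were called, with an adjusted p in edgeR of 0.0527 for ZIP9 and 0.126 for ZIP7. Depth limits ZIP4 most, with at most 38 counts in a library.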
